A study of Mus musculus with 2 samples.

Results

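The heat shock factors *Hsf1* and *Hsf2* and 8 chaperone genes, *Hspa1a*, *Hspa1b*, *Hspa2*, *Hspa8*, *Hsp90aa1*, *Hsp90ab1*, *Hsph1* and *Dnajb1*, were examined by gene symbol among 39695 gene entries of an RNA-seq data set from P9 mouse testes. All 10 genes were found and all had a mean RPKM of at least 1, the minimum set for a gene to enter the comparison, as did 14831 genes of the whole table. The control library came from *Bcas2F/-* males without the Cre transgene, and the other library from *Bcas2F/-;Vasa-Cre* males, both 9 days old, so both groups carried a deleted *Bcas2* allele in every cell. *Vasa-Cre* is active in germ cells, whereas the RNA was taken from whole testes, in which somatic cells keep the floxed allele. The labels name C57BL/6 as the strain and the methods a mixed background that includes it, and the number of mice behind each library is not given in the sources used here. Each genotype had 1 library, so no difference has a replicate check, no p-value is given, and every interval covers counting error only.

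When proteins unfold, the heat shock factor HSF1 is released from its chaperones, forms trimers and binds heat shock elements, which are inverted repeats of GAA, in front of chaperone genes. HSP70 proteins bind unfolded stretches of a client, J-domain proteins such as DNAJB1 deliver the client and speed up ATP hydrolysis, HSP110 proteins such as HSPH1 exchange the nucleotide, and HSP90 proteins fold signalling proteins and receptors at a late step. In the testis several members have germ cell roles. HSF2 is abundant there, HSPA2 is an HSP70 of spermatocytes and spermatids that is needed to complete meiosis, and male mice without *Hsp90aa1* are sterile because spermatocytes arrest.

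The HSP70 genes *Hspa1a* and *Hspa1b* have to be read with their sequences in view, because many short reads cannot tell them apart. Both are single-exon genes on the minus strand of chromosome 17 of GRCm38, *Hspa1a* from 34969190 to 34972156 and *Hspa1b* from 34956436 to 34959238. Their GENCODE M21 transcripts, 2967 and 2803 bases long, aligned over 2200 columns with 19 differences, 11 of them in the coding sequence, and the longest identical run was 638 bases. Of all 100-base windows in that alignment, 64.1% were identical between the genes. The rest of each transcript lies outside that alignment and was not part of this share. The stretch below, from chr17:34970510-34970569 in *Hspa1a* and chr17:34957592-34957651 in *Hspa1b*, is shown because no 60-base coding stretch held more differences, which are in capitals:
Hspa1a: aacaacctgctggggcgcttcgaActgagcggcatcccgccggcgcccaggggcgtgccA
Hspa1b: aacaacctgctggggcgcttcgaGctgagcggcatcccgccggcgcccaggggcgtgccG
Even this stretch held only 2 differences. How reads that match both genes were counted is not given in the sources used here, so the separate values of both genes are uncertain.

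Promoters of 6 members were held in the RefSeq windows of GRCm38.p6, which span 250 bases before to 50 bases after a gene's start. A heat shock element was searched on both strands as GAANNTTC or TTCNNGAA, each of which is its own reverse complement, and in a longer form as GAANNTTCNNGAA or TTCNNGAANNTTC, which contains the shorter forms. The 6 members had 8 windows, of which 4 held a shorter form and 2 the longer one, where 15.1% and 0.603% of all 32851 windows did. These 4 windows belong to 3 genes, the near-identical *Hspa1a* and *Hspa1b* with the same match and *Hsph1* with overlapping windows. The other 4 members had no window to search. The matched stretches, from chr17:34972243-34972270, chr17:34959325-34959352, chr5:149636352-149636379 and chr5:149636280-149636308 on the minus strand, are shown because they hold all matches among the members, with the motif in capitals:
Hspa1a: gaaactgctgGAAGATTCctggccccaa
Hspa1b: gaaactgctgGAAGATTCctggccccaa
Hsph1, shorter form: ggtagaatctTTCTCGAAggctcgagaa
Hsph1, longer form: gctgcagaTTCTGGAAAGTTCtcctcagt
The motifs of *Hspa1a* and *Hspa1b* lay 97 to 104 bases before the start in identical surroundings, and the 300-base windows of both genes differed at 4 positions. In *Hsph1* the shorter form lay 47 to 54 bases before the more downstream of its RefSeq starts, inside the gene bounds of GENCODE M21 given below, and the longer form 15 to 27 bases after it, and the windows of both starts held both matches. The windows of *Dnajb1*, *Hsf2* and *Hspa2* held none of these letters, which says nothing about binding of HSF1.

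The targeted gene was examined first. *Bcas2*, a component of the spliceosome on chromosome 3 from 103171655 to 103179166, was at 39.5 RPKM in control and 25.7 RPKM in *Bcas2F/-;Vasa-Cre* testes, from 1410 and 888 reads, or -0.60 as log2 ratio of RPKM + 1. The values rest on libraries of 19918750 and 19331687 counted reads. These sizes were inferred from the RPKM values of genes with 1 annotated transcript, as the whole number found most often. They lie below the mapped reads that the paper reports. Whether a counted read is a read pair is not given in the sources used here. Whole reads per gene were recovered from the RPKM values, because each read adds the same step to a gene's RPKM within a library. Among genes with 1 annotated transcript, 76.1% of the control values and 76.3% of the *Bcas2F/-;Vasa-Cre* values gave whole reads at the annotated length, within 0.001 of a read. Where several lengths gave whole reads, the length nearest the mean annotated transcript length was taken, so a gene's reads could be wrong by a whole factor. Shorter lengths also gave whole reads for *Hspa1b* and *Bcas2*, and at 1670 bases *Hspa1b* would have 258 and 292 reads. Multiples of the length used did so for *Hsf1*, *Hspa8*, *Hsp90aa1*, *Hsp90ab1*, *Dnajb1*, *Hspa1b* and *Bcas2*, which would raise their reads but leave RPKM and its ratio as they are.

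None of the 10 genes was past 1.5-fold in either direction, where 1.69% of the 14831 genes tested were lower, 1.57% higher and thus 3.26% past it either way. Differences are log2 ratios of RPKM + 1, *Bcas2F/-;Vasa-Cre* over control testes. The 10 values ran from -0.21 for *Hsp90aa1* to 0.29 for *Hsph1*, with 5 above 0 and 5 below, and the largest difference was 1.23-fold. Their median was 0.017, and the median of all genes tested was 0.015. Together the 10 genes took 86454 reads or 0.434% of the control library and 81523 reads or 0.422% of the *Bcas2F/-;Vasa-Cre* library.

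**Figure D1:**
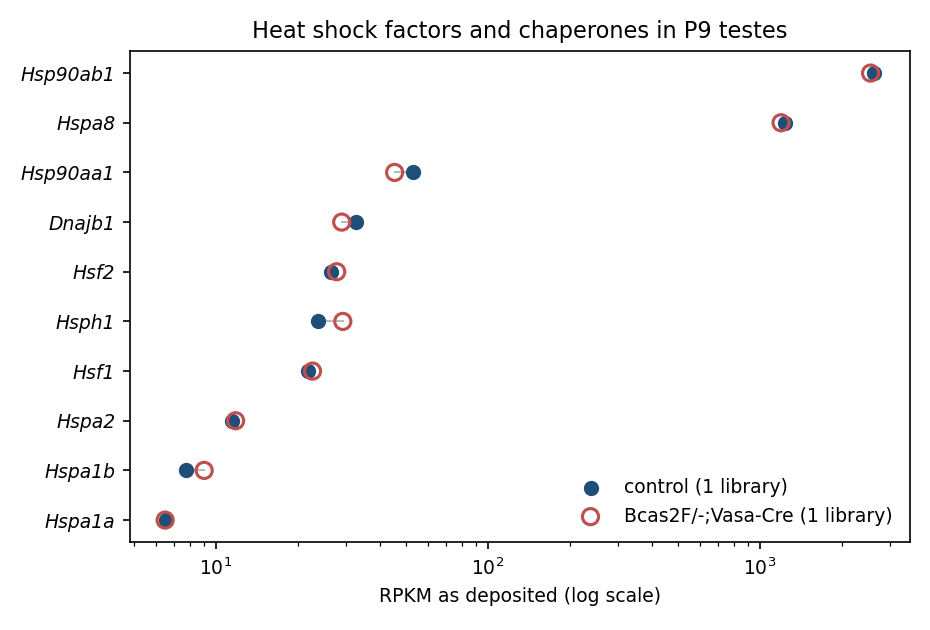
RPKM of the 10 genes on a log scale in the control library (filled) and the *Bcas2F/-;Vasa-Cre* library (open), 1 library each, ordered by mean RPKM. *Hsp90ab1* and *Hspa8* stand at over 1000 RPKM, the other 8 genes lie between 6.50 and 52.8 RPKM, and within each gene the symbols lie close together.

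The heat shock factors, the transcription factors of the response, were present at similar levels. *Hsf1*, on chromosome 15 from 76477422 to 76501913, had 21.9 RPKM in control and 22.6 RPKM in *Bcas2F/-;Vasa-Cre* testes, from 879 and 883 reads. *Hsf2*, on chromosome 10 from 57486385 to 57513135, had 26.4 and 27.8 RPKM, from 1374 and 1403 reads. Their log2 ratios were 0.05 and 0.07. The 95% Clopper-Pearson intervals of the ratio without pseudocount, -0.09 to 0.19 and -0.04 to 0.18, both held 0. The paper lists *Hsf1* among genes with a skipped exon event in the same RNA-seq data. It reports RT-PCR verification for *Dazl*, *Ehmt2* and *Hmga1* and not for *Hsf1*. The RPKM of a gene pools 16 annotated transcripts of *Hsf1*, of which 7 are protein-coding, and cannot show whether their shares differed.

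Among the HSP70 genes, the constitutive *Hspa8*, which encodes the cytosolic HSC70 on chromosome 9 from 40800984 to 40810087, was by far the most abundant. It had 1239 RPKM in control and 1195 RPKM in *Bcas2F/-;Vasa-Cre* testes, from 32750 and 30665 reads. The log2 ratio was -0.05 (interval -0.07 to -0.03). With this many reads a difference of -3.52% lay outside counting error, while the middle 90% of the 93 genes within 2-fold of its RPKM ran from -0.28 to 0.13. The introns of *Hspa8* contain 3 snoRNA genes, which overlap it in the annotation.

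The inducible HSP70 genes were low in both libraries. *Hspa1a* had 6.55 RPKM in control and 6.50 RPKM in *Bcas2F/-;Vasa-Cre* testes, from 333 and 321 reads, and *Hspa1b* had 7.76 and 9.04 RPKM, from 387 and 438 reads. The log2 ratio was -0.01 for *Hspa1a*, with an interval of -0.24 to 0.22, and 0.20 for *Hspa1b*, with an interval of 0.02 to 0.42. As the sequences above show, many reads cannot be assigned safely between them. Added together they had 720 and 759 reads, which gave 0.12 on the log2 scale (95% interval -0.03 to 0.27). A further entry, *Gm20481*, overlaps *Hspa1a* in the annotation and was listed at 0 in both libraries.

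*Hspa2*, the HSP70 gene of meiotic and later germ cells, lies on chromosome 12 from 76404176 to 76406938. The longer of its 2 annotated protein-coding transcripts has a single exon. The gene had 11.4 RPKM in control and 11.8 RPKM in *Bcas2F/-;Vasa-Cre* testes, from 574 and 575 reads, which gave 0.04 on the log2 scale (interval -0.12 to 0.22). The meiosis prophase I markers *Dmc1*, *Sycp1*, *Sycp3* and *Smc1b* were all lower in the same library, with a median log2 ratio of -0.47 and a summed RPKM of 84.1 in control and 54.2 in *Bcas2F/-;Vasa-Cre* testes. Of these, *Sycp3* stood nearest to 0 at -0.30 and *Smc1b* farthest at -1.11. The part of the spermatocyte content in the value of *Hspa2* was not tested. In whole testes, fewer cells of a type and less RNA per cell cannot be told apart. The 3 members whose longest protein-coding transcript has a single exon are *Hspa1a*, *Hspa1b* and *Hspa2*. Their log2 ratios were -0.01, 0.20 and 0.04, and the other 7 members ranged from -0.21 to 0.29.

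**Figure D2:**
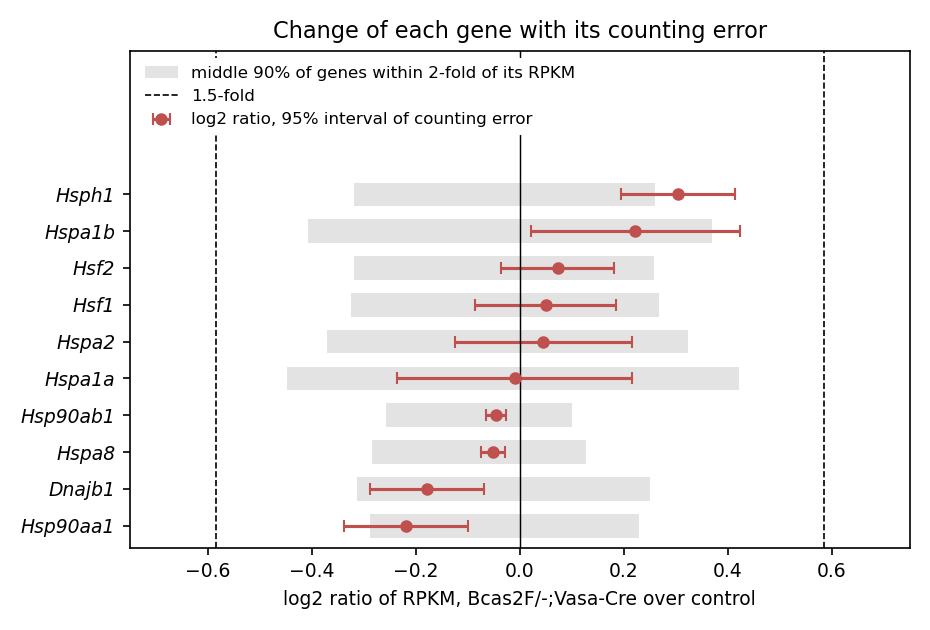
Log2 ratio of RPKM without pseudocount for each gene (points), with the 95% interval of counting error (bars), and the middle 90% of all genes within 2-fold of its mean RPKM (grey). No interval reaches the dashed 1.5-fold lines, 6 of the 10 intervals lie off 0, and the point of *Hsph1* at 0.30 is the one beyond its grey band.

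The HSP90 genes, which encode the inducible HSP90α and the constitutive HSP90β, differed widely in level. *Hsp90ab1*, on chromosome 17 from 45567775 to 45573271, had 2632 RPKM in control and 2550 RPKM in *Bcas2F/-;Vasa-Cre* testes, from 46186 and 43437 reads. Its log2 ratio was -0.05, with an interval of -0.06 to -0.03. *Hsp90aa1*, on chromosome 12 from 110690605 to 110702728, had 52.8 and 45.4 RPKM, from 1247 and 1040 reads. With -0.21 it was the lowest among the 10 genes (interval -0.34 to -0.10). Of the 4032 genes within 2-fold of its RPKM, 9.05% were at or below this value.

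The spermatogonia markers were split, with more of them lower in the same library as *Hsp90aa1*. By RT-PCR at P9, the paper reports similar mRNA levels of these markers in both genotypes. Of the 10 on the list 9 were tested, and 6 of them lay below 0 and 3 above, where 46.3% of all genes tested lay below 0. Counting intervals lay below 0 for 5 of them and above 0 for 3. The 9 genes had a median of -0.25 and a summed RPKM of 472 in control and 365 in *Bcas2F/-;Vasa-Cre* testes. Their values ran from -0.61 for *Stra8* to 0.49 for *Nanos2*, with *Dazl*, the most abundant, at -0.40, while *Sox2* was below the expression minimum. The part of the germ cell content in the value of *Hsp90aa1* was not tested.

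The partners of HSP70 lay on opposite sides of 0. *Hsph1*, on chromosome 5 from 149614287 to 149636376, had 23.7 RPKM in control and 29.3 RPKM in *Bcas2F/-;Vasa-Cre* testes, from 1246 and 1493 reads. With 0.29 (interval 0.19 to 0.41) it was the highest of the 10 genes. Of the 5183 genes within 2-fold of its RPKM, 2.51% were at or above this value. *Hsph1* was the only 1 of the 10 genes outside the middle 90% of such genes, and by construction 1 gene in 10 lies outside such a band. *Dnajb1*, on chromosome 8 from 83608193 to 83612653, had 32.8 and 29.0 RPKM, from 1478 and 1268 reads, which gave -0.17 on the log2 scale (interval -0.29 to -0.07). *Hsph1* and *Hspa1b* were the 2 members with intervals above 0, of which that of *Hspa1b* held 0 at either shorter length, as did the interval of *Hspa1a* and *Hspa1b* together.

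Counting intervals lay above 0 for 2 of the 10 genes and below 0 for 4, against 19.8% and 17.9% of the 14363 tested genes whose reads were recovered, or 37.8% either way. Among the 7896 genes with at least 1000 reads in both libraries together, 50.3% had an interval off 0 in either direction. Such an interval compares these 2 libraries and not the genotypes.

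**Figure D3:**
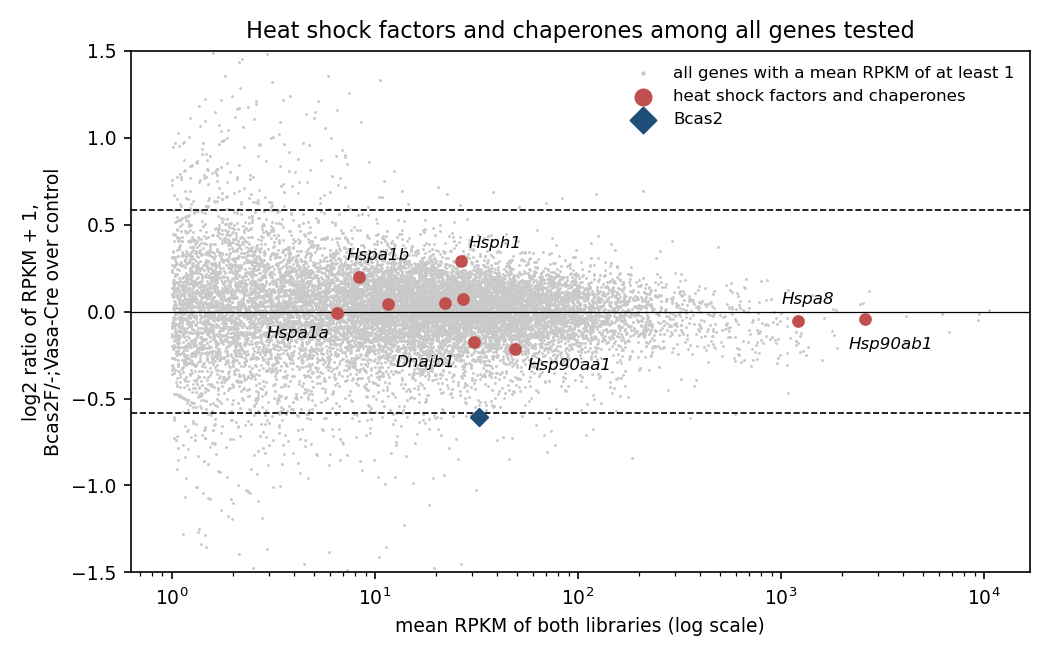
Log2 ratio of RPKM + 1 against mean RPKM (log scale) for all 14831 genes tested (grey), the 10 heat shock factors and chaperones (red) and *Bcas2* (diamond), with dashed lines at 1.5-fold. The 10 genes lie inside the lines and *Bcas2* just outside, and 37 genes fall beyond the plotted range.

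The order of the levels depended on the gene length behind the RPKM. The recovered length of *Hsp90aa1*, 1186 bases, equalled the mean over its 8 annotated transcripts, whereas its longest protein-coding transcript has 3281 bases. For *Hsp90ab1* the lengths were 881 and 2520 bases, and for *Hspa8* 1327 and 2394 bases. Per kilobase of the longest protein-coding transcript, *Hsp90ab1* had 920 RPKM in control and 892 RPKM in *Bcas2F/-;Vasa-Cre* testes, and *Hspa8* 687 and 663 RPKM. *Hsp90aa1* had 19.1 and 16.4 RPKM on this scale and moved from the third to the sixth place in control, behind *Hsf2* with 26.5 RPKM, *Dnajb1* with 24.8 RPKM and *Hsf1*. *Hsph1* followed with 16.5 RPKM, and *Hspa2*, *Hspa1b* and *Hspa1a* were the 3 lowest on both scales. *Hsp90ab1* exceeded *Hsp90aa1* by 48.2 times in control and 54.4 times in *Bcas2F/-;Vasa-Cre* testes, and *Hspa8* exceeded *Hspa2* by 60.2 and 56.3 times. This order rests on the recovered lengths. At the next possible length, 2372 bases, *Hsp90aa1* would have 38.2 RPKM per kilobase of that transcript in control. Whether neighbours such as *Hsf1* and *Hsp90aa1* differ could not be tested with 1 library per genotype.

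**Figure D4:**
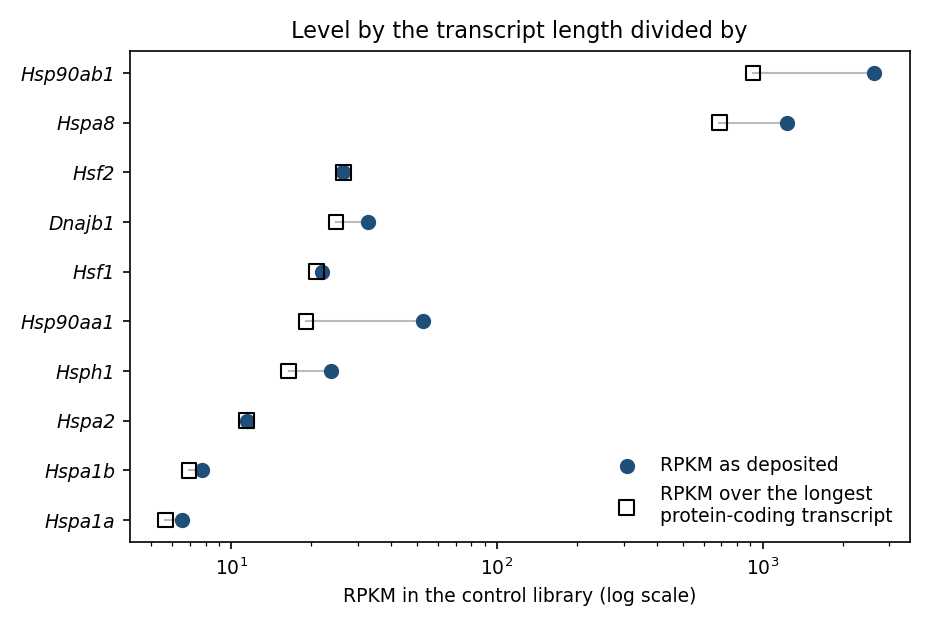
RPKM of the 10 genes in the control library (log scale) as deposited (filled) and over the longest protein-coding transcript (open). The open symbols lie 2.86-fold lower for *Hsp90ab1* and 2.77-fold lower for *Hsp90aa1*, and almost on the filled ones for *Hsf2* and *Hspa2*.

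Other genes of the chaperone network were taken from 8 lists, which named 97 genes. Of these, 83 were tested, 13 were below the expression minimum and 1 matched no entry by symbol. None of the 83 was past 1.5-fold, 52 lay below 0 and 31 above, and their median was -0.03, against 46.3% of all genes tested below 0 and a median of 0.015. *Hspa4l*, an HSP110 gene related to *Hsph1* that is needed for normal male fertility, had 34.3 RPKM in control and 26.6 RPKM in *Bcas2F/-;Vasa-Cre* testes and with -0.35 the lowest log2 ratio of the 83, from 1763 and 1328 reads. *Hspa4*, also an HSP110 gene and the most abundant of the other HSP70 genes, was at 0.06, and *Hspa12b* was the highest of these 5 at 0.19.

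Of 15 other J-domain genes 10 lay below 0, from *Dnajc2*, a ribosome-associated partner, at -0.28 to *Dnajb14* at 0.18, and the most abundant, *Dnaja1*, was at -0.01. The small heat shock proteins ranged from -0.14 for *Hspb8* to 0.10 for *Cryab*, with *Hspb1*, the most abundant of the 6 tested, at 0.04. Among 23 co-chaperones of HSP70 and HSP90, 15 lay below 0 and 8 above. *Pih1d1*, an HSP90 adaptor, was the lowest at -0.34, *Fkbp5*, an HSP90-bound immunophilin, the highest at 0.19, and *Fkbp4*, the most abundant, was at -0.20.

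The chaperonins, the barrel-shaped folding machines of cytosol and mitochondria, had the lowest median of the 8 lists, -0.12. Of the 10 tested, 9 lay below 0, and 8 of these had a counting interval below 0, against 17.9% of all genes with recovered reads. All 10 had over 1000 reads in both libraries together, a depth at which 50.3% of genes had an interval off 0 in either direction. *Cct4*, a subunit of the cytosolic chaperonin TRiC, was the lowest, with 315 RPKM in control and 268 RPKM in *Bcas2F/-;Vasa-Cre* testes and a log2 ratio of -0.23. *Cct8*, the most abundant, was at -0.07, and *Hspd1* was the exception at 0.07. Of the 6 mitochondrial chaperones 5 lay below 0, from *Clpb* at -0.26 to *Hspa9*, the mitochondrial HSP70, at 0.05. The 15 endoplasmic reticulum chaperones lay close to 0, with a median of -0.02, a range from *Sdf2l1* at -0.22 to *Calr* at 0.09, and *Pdia3*, the most abundant, at 0.00. The list of other heat shock factors and their binding proteins had 3 genes tested. *Hsbp1*, which encodes an HSF1-binding protein, was the most abundant and the lowest at -0.19, *Hsf2bp*, which encodes an HSF2-binding protein, was at 0.12, and *Hsf5*, the only heat shock factor among them, was at 0.27 with a mean RPKM of 1.01, just over the minimum.

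**Figure D5:**
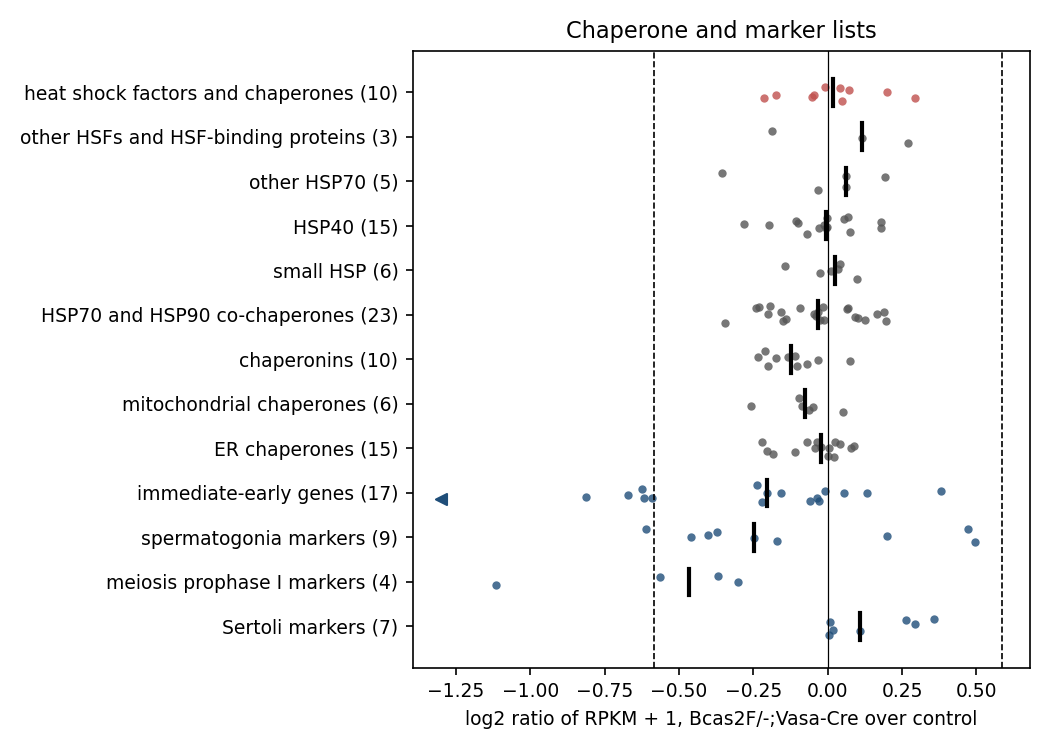
Log2 ratio of RPKM + 1 for each tested gene of the heat shock factors and chaperones, the 8 wider chaperone lists and 4 marker lists, with the number tested in brackets, black bars at the medians and dashed lines at 1.5-fold. No chaperone lies outside the lines, 6 immediate-early genes lie below them, and the arrow marks *Fosb* at -3.22.

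Immediate-early genes, which respond within minutes to a stimulus or to tissue handling, were split. Of 17 tested, 14 lay below 0 and 3 above, where 46.3% of all genes tested lay below 0. In the *Bcas2F/-;Vasa-Cre* library 6 were more than 1.5-fold lower and none was higher, where 1.69% and 1.57% of all genes tested were. The median was -0.20. *Fosb* had 816 reads in control and 20 in *Bcas2F/-;Vasa-Cre* testes and passed the minimum through the control library. The 6 were *Fosb* at -3.22, *Atf3* at -0.81, *Zfp36* at -0.67, *Dusp1* and *Fos* at -0.62 and *Ier3* at -0.59, while *Egr2* was the highest at 0.38 and *Jund*, the most abundant, was at -0.20. The part of tissue handling in the values of the chaperones was not tested.

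Markers of the somatic cells were present. Sertoli markers lay above 0 in 7 of 7 tested, where 53.7% of all genes tested did. A counting interval above 0 was found for 4 of the 7, against 19.8% of all genes with recovered reads. Their values ran from *Fshr* at 0.00 to *Amh* at 0.36, with *Cldn11*, the most abundant, at 0.02. The median was 0.11 and the summed RPKM 763 and 838, and *Rhox5* was listed at 0 in both libraries. Leydig markers had a median of 0.03, with *Hsd3b1*, the most abundant, lowest at -0.17 and *Cyp17a1* past 1.5-fold at 0.68. Peritubular myoid markers had a median of -0.05, from *Acta2*, the most abundant, at -0.13 to *Cnn1* at 0.09, and endothelial markers one of -0.10, from *Tek* at -0.22 to *Kdr* at 0.08, with *Cdh5*, the most abundant, at -0.06. Of the 8 blood and immune markers 7 lay below 0, where 46.3% of all genes tested did. *Slc4a1*, *S100a8*, *S100a9* and *Ptprc* were under 1 RPKM in the *Bcas2F/-;Vasa-Cre* library and passed the minimum through the control library. Their place below 0 was thus partly fixed by that minimum. *Slc4a1*, *S100a9* and *S100a8* were past 1.5-fold at -3.38, -2.95 and -2.64, while *Hbb-bs*, the most abundant, was at 0.11. The part of these cell types in the values of the 10 genes was not tested.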

How the data were processed

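Total RNA from whole testes was sequenced as 1 paired-end library per genotype. The authors removed adaptor and low-quality sequences, aligned the reads with TopHat2 (version 2.0.9 and build mm10 in the submitters' processing notes), used HTSeq for counting and deposited 1 RPKM value per gene. RPKM does not adjust for a change in RNA composition. The annotation release and the gene lengths are not given in the sources used here. Of 39695 entries, 94.7% were matched by Ensembl identifier to GENCODE M21 on GRCm38.

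Log2 ratios of RPKM + 1 were taken over 14831 genes whose mean RPKM reached 1. Genes past 1.5-fold were counted. Whole reads were recovered at a tolerance of 0.001 reads, and 95% Clopper-Pearson intervals were taken of the share of reads, in addition to pseudocounts of 0.1 and 0.01, other scalings, filters and a 2-fold limit. Copies of members were sought with BLAST+ 2.17.0 at 90% identity over 50% of their length. The procedures were tested on simulated libraries. Python 3.11.15, numpy 2.4.6, pandas 2.3.3 and scipy 1.17.1 were used. All members were named, and from each other list the genes past 1.5-fold and the lowest, highest and most abundant gene. The members and lists were chosen with earlier results of these data known. Genes of like pattern were not sought, since 2 libraries give no measure of likeness.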

Additional observations from a re-analysis of the deposited data

How the results depend on the processing

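None of the 10 genes was past 1.5-fold under any alternative. Of 64 values of single members under 7 alternatives, 62 stayed inside the gene's counting interval. The exceptions were *Hspa8* at -0.02 and *Hsp90ab1* at -0.02 when each library was scaled to a total RPKM of 1000000. *Hspa1a* lay above 0 with that scaling, at 0.02, and with the reads of *Hspa1b* added, at 0.12. Part of the 62 was fixed in advance, since values without pseudocount are the centres of these intervals and smaller pseudocounts move towards them. The median of the blood and immune markers was -1.45 with a mean RPKM of at least 5, where fewer genes were left. This filter kept *Slc4a1*, *S100a8* and *S100a9*, each under 1 RPKM in the *Bcas2F/-;Vasa-Cre* library.

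The counts over all genes, 251 lower and 233 higher at 1.5-fold, moved more. They were 457 and 454 with a pseudocount of 0.1, 485 and 491 with 0.01, 468 and 511 with no filter, 104 and 46 with a mean RPKM of at least 5, and 56 and 63 at 2-fold. With RPKM rescaled to 1000000 they were 356 and 434 of the 16133 genes that then passed the minimum, and this scaling also lowers the weight of the pseudocount. The filters likewise change the genes tested and the 2-fold limit those counted. A smaller pseudocount moves every log2 ratio other than 0 away from 0, so over the same genes these counts could only rise. The part of each change in the rescaled counts was not tested. The per-length scale of the longest protein-coding transcript was chosen after seeing the data. No paired analysis was possible because each genotype had 1 library, for which reason no library could be left out. Depth limits *Hspa1a* and *Hspa1b* most, where differences within about 0.2 on the log2 scale were not detectable.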

Other observations

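The recovered length behind the RPKM was far below that of the longest protein-coding transcript for many genes, not for the HSP90 genes alone. Of 12973 protein-coding genes tested with a recovered length, 26.1% had a recovered length of at most 50% of it, and the median share was 66.9%. *Hsp90ab1* stood at 35.0% and *Hsp90aa1* at 36.1%, with 6.60% and 7.66% of genes at a smaller share. Ratios between libraries are not touched by this length, other than through the pseudocount, whereas levels compared between genes are.

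Annotated copies of *Hspa8* and the HSP90 genes held few reads. Of 11 annotated copies of *Hspa8*, 2 had an entry, and *Gm8355*, 98.7% identical to *Hspa8* over 1941 bases, had 15 reads in control and 0 in *Bcas2F/-;Vasa-Cre* testes. Copies of *Hsp90aa1* had 6 and 4 reads in all.

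Below the expression minimum, *Hsf3*, a heat shock factor gene chosen after its values were seen, had 0.312 RPKM in control and 1.11 RPKM in *Bcas2F/-;Vasa-Cre* testes, from 11 and 38 reads. The interval of its log2 ratio without pseudocount was 0.83 to 2.95. *Hspb9*, a small heat shock protein gene of the testis that was also chosen after its values were seen, had 18 and 5 reads, with an interval of -3.59 to -0.32.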
